A study of Arabidopsis thaliana with 71 samples.

Results

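The genes described here are 42 Arabidopsis thaliana genes of touch and rapid stress responses, out of 22332 genes in the deposited table. They were listed by locus, without a threshold on measured values but with earlier results of these data known, and all 42 were in the table. They hold 6 touch and calcium genes, 4 cold and drought factors, 10 ethylene response factors (ERF), 8 zinc finger genes, 7 WRKY and WRKY-partner genes, 3 MYB genes and 4 genes of mRNA and protein turnover. Of these, 40 reached a group mean of at least 1 FPKM and were tested. CBF1 and CBF3 did not reach it.

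The libraries came from whole Columbia seedlings that had grown for 7 days in shaken liquid medium, with 50 seeds and 50 ml to a flask, and then received 50 µM dexamethasone. The 4 transgenic lines carry Asymmetric Leaves 2 (GR-AS2), SHOOT MERISTEMLESS (GR-STM), REVOLUTA (GR-REV) or KANADI1 (GR-KAN1) joined to GR, by usual naming the glucocorticoid receptor or its ligand-binding domain, and the line they were set against was wild type (WT). Each transgenic line had 3 libraries at 0, 30, 60 and 120 min after the hormone was added, except GR-REV at 30 min with 2, and WT had 6 at each time, which gave 71 libraries. Every group received the hormone, WT included, no hormone-free group was analysed here, and the 0 min seedlings were frozen 0 min after the addition. The labels name neither the promoter that drives each fusion nor the number of independent lines, and whether 1 library is 1 flask is not given in the sources used here.

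Touch genes were found as transcripts that accumulate within minutes when a plant is bent, sprayed or handled. A mechanical, cold or wounding stimulus raises cytosolic calcium, which calmodulin-like proteins bind, and mitogen-activated protein kinases and CAMTA factors carry the signal to promoters of early response genes. Many of these early genes encode AP2/ERF, WRKY, C2H2 and MYB transcription factors with short-lived transcripts, and a seedling returns them to a low level unless the stimulus persists. The TTGAC core of the W-box is the sequence WRKY factors bind, CGCGTT is bound by CAMTA factors, GCCGCC by ERF factors, CCGAC by CBF and DREB2 factors, and ACGTG is the core of G-box and abscisic acid elements.

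The genes are compact. Of the 42 members, 29 (69.0%) have a single exon in the TAIR10.1 annotation, against 3062 of 18641 tested protein-coding genes (16.4%). The median exon number is 1 for the members and 4 for the tested genes, and the median longest transcript is 1364 and 1681 bases. Some members are neighbours: ERF6 and ERF1A lie 5041 bases apart on chromosome 4 with 0 protein-coding genes between them, CBF2, CBF3 and CBF1 follow each other on chromosome 4 with gaps of 1774 and 2379 bases, and ERF2 and ERF5 lie 6924 bases apart on chromosome 5. The annotated bounds of 12 members overlap another gene (TCH2, TCH3, CBF3, DREB2A, ERF105, RRTF1, WRKY33, WRKY40, WRKY53, MYB44, MYB73 and PUB23), and since use of strand is not given in the sources used here, their FPKM may hold reads of the partner.

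The 250 bases upstream of 4 members on which the comparisons below turn are printed 5′ to 3′ on the strand of the gene, from the TAIR10.1 genome of RefSeq. Capitals mark the TTGAC core on either strand (GTCAA on the reverse), except in TCH2, where they mark CGCGTT on either strand. TCH4 is at chr5:23308681-23308930, minus strand. ERF11 is at chr1:9956981-9957230, minus strand. SZF1 is at chr3:20775970-20776219, plus strand. TCH2 is at chr5:14999620-14999869, minus strand.
TCH4: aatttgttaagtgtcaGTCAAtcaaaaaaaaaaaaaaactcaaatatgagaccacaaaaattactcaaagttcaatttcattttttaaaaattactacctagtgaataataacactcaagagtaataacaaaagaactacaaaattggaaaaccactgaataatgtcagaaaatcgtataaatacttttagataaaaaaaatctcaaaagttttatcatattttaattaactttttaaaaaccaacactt
ERF11: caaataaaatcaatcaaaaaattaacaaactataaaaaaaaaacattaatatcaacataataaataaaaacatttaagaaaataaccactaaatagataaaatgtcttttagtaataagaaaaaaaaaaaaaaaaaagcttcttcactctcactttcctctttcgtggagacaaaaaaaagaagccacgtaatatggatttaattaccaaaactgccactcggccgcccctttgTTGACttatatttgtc
SZF1: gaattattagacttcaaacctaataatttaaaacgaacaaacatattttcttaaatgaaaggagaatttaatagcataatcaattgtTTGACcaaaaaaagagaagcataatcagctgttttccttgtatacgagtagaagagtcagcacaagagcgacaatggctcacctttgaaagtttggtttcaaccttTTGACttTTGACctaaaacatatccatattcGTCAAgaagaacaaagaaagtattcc
TCH2: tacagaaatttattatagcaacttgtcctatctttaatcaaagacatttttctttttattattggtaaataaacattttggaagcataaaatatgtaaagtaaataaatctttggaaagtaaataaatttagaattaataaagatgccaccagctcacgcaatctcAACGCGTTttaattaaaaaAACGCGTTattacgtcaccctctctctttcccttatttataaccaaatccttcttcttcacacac

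SZF1 held 4 TTGAC matches in its 250 bases, while TCH4 and ERF11 held 1 each. The TTGAC core occurred upstream of 27 of the 42 members (64.3%), and upstream of 45.1% of 18638 tested genes over the same length. At least 2 matches were found in 13 of the 42 members, and in 14.3% of the tested genes. GCCGCC occurred in 4 members, ERF11, ZAT10, ZAT6 and WRKY33 (9.5%, against 1.9% of the tested genes). ACGTG occurred in 33.3% of the members against 23.8% of the tested genes, and CCGAC in 9.5% against 12.9%. CGCGTT was found in 2 members, TCH2 and CBF2 (4.8%, against 2.8%). The 4 CGCGTT matches of TCH2 are overlapping pairs, since the run AACGCGTT reads as a match on both strands. A match is a run of letters and not a shown binding site, and matches of different motifs were each counted whether or not they overlapped.

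Levels differed widely among the members. At 0 min in WT, TCH3, a calmodulin-like calcium sensor, stood highest at 108.8 ± 66.1 FPKM (SD, n = 6), followed by the MYB factor MYB44 (median 52.6 FPKM), the calmodulin-like TCH2 at 41.3 ± 19.6 FPKM and WRKY11 at 20.8 ± 4.90 FPKM. FPKM are scaled by transcript length, so these levels can be set beside each other. Near the floor were CBF1, listed at 0 in 29 of 71 libraries and nowhere above 0.578 FPKM, and CBF3 and RRTF1, each listed at 0 in 9 libraries. CBF2 was listed at 0 in 5 libraries and ERF13 in 3. Fold changes below are log2 differences of log2(FPKM + 0.5), which understate changes of such low genes. In whole seedlings, fewer cells of a type and less RNA per cell cannot be told apart.

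At 0 min the members stood higher in GR-STM, GR-REV and GR-KAN1 than in WT, and little higher in GR-AS2. In a limma model over all 71 libraries, with calls made where the adjusted p (Benjamini-Hochberg, over 19406 genes) was under 0.05, GR-AS2 had 2 members higher and 0 lower, where 10.3% of all tested genes were called, 4.7% higher and 5.6% lower, so that the members' share was near that of all genes. GR-STM had 16 higher and 0 lower, where 0.33% of all tested genes were called, all of them higher. GR-REV had 13 higher and 0 lower, where 7.81% were called, 4.86% higher and 2.95% lower. GR-KAN1 had 18 higher and 0 lower, where 0.742% were called and 0.52% higher. The median log2 difference over the 40 members was 0.33 in GR-AS2, 1.13 in GR-STM, 0.90 in GR-REV and 1.124 in GR-KAN1, while the medians over all genes lay between -0.01 and 0.00. The difference was positive for 33 members in GR-AS2, 40 in GR-STM, 34 in GR-REV and 40 in GR-KAN1. The 40 tested members include CBF2, ERF13 and RRTF1, genes near the floor that are described below. These 4 comparisons share the same 6 WT libraries. Since the members were chosen with earlier results of these data known, their counts beside those of all genes are a description.

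**Figure D1:**
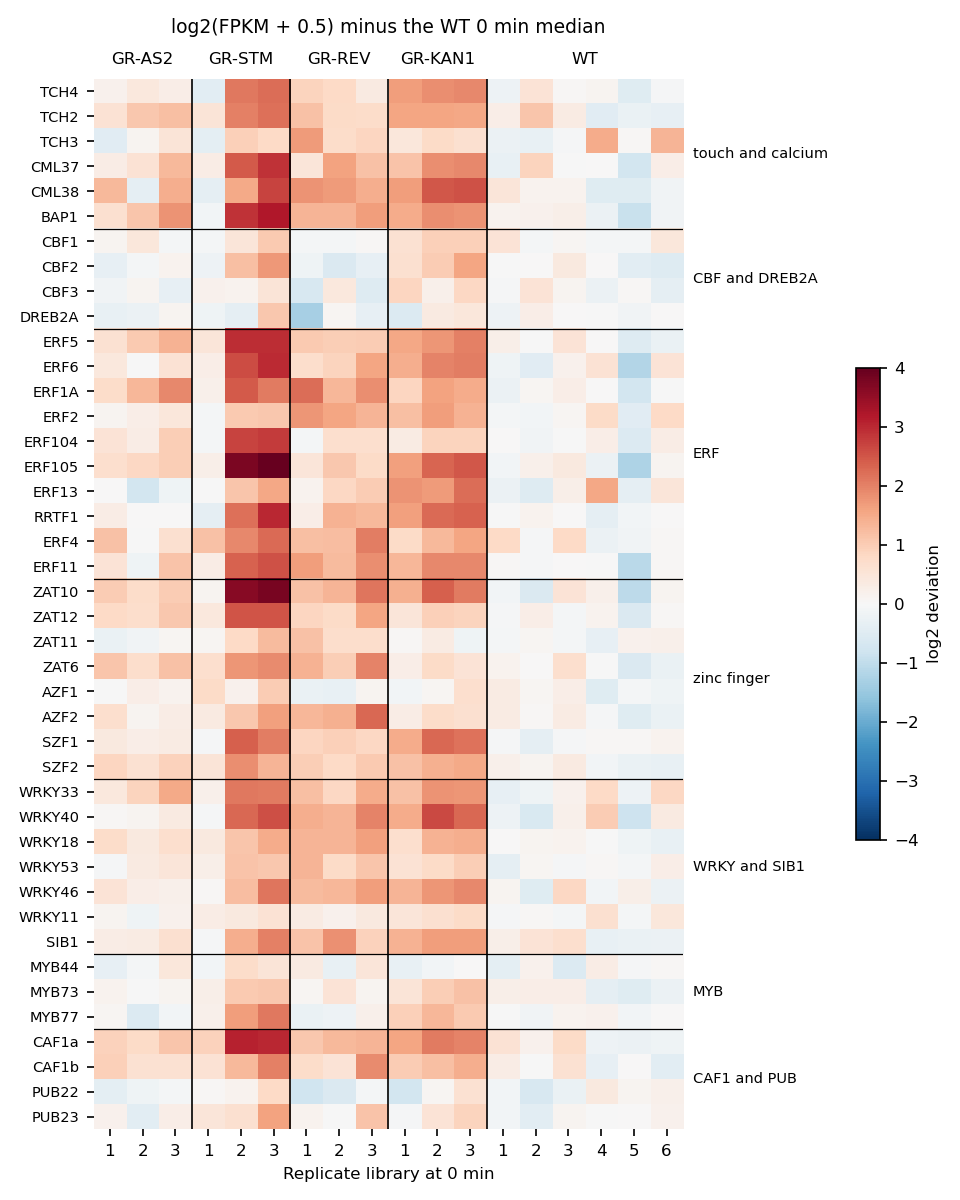
Each row is 1 of the 42 members, grouped by role, and each column is 1 library at 0 min. Colour gives log2(FPKM + 0.5) minus the median of the 6 WT libraries at 0 min, with red higher and blue lower. GR-STM replicate 1 is pale where replicates 2 and 3 are dark red, the 3 GR-KAN1 libraries are red in most rows, and WT stays pale.

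The 3 GR-STM libraries at 0 min were unlike each other. The median deviation of the members from the WT 0 min median was 0.21 in replicate 1, 1.72 in replicate 2 and 2.06 in replicate 3, against -0.27 to 0.18 over the WT libraries. Replicate 1 had 10 of 40 members above all 6 WT libraries, replicate 2 had 34 and replicate 3 had 37, where 13.0%, 15.2% and 14.9% of all tested genes stood above them. Replicate 3 held the highest level of 17 members over all 71 libraries, and replicate 2 that of 4 more. Without replicate 1 the model called 31 members, without replicate 2 it called 0, and without replicate 3 it called 0. Without both replicates 2 and 3 it also called 0, an alternative chosen after the data were seen. No member called in GR-STM at 0 min was called in every fit that left out 1 library.

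In the other lines the 3 libraries lay closer together in the members' median at 0 min. The median deviation was 1.08, 1.501 and 1.54 in the GR-KAN1 libraries, 1.01, 0.87 and 1.123 in the GR-REV libraries and 0.41, 0.27 and 0.55 in the GR-AS2 libraries. Of the 40 members, 29, 35 and 36 stood above all WT libraries in the GR-KAN1 libraries, where 15.3%, 12.2% and 13.5% of all genes did. In the GR-REV libraries 29, 27 and 30 members did (21.3%, 17.1% and 22.7% of all genes), and in the GR-AS2 libraries 18, 15 and 22 did (16.6%, 19.5% and 24.3%). All 3 libraries lay above all 6 WT libraries for 29 members in GR-KAN1 (4.09% of all genes), 23 in GR-REV (6.74%), 9 in GR-STM (3.19%) and 13 in GR-AS2 (6.1%), and no member lay wholly below WT in any line. The 29 of GR-KAN1 include CBF2, ERF13 and RRTF1. The count of members called in GR-KAN1 was 7 without replicate 2 and 7 without replicate 3, and in GR-REV it was 6 without replicate 3. On the main axis of residual variation over all genes, the 5 libraries furthest out were GR-AS2 replicate 1, GR-STM replicate 2, GR-REV replicate 3 and GR-KAN1 replicate 3 at 0 min and GR-AS2 replicate 3 at 60 min. Without these 5, an alternative chosen after the data were seen, the model called 0 members in GR-STM, 6 in GR-REV and 6 in GR-KAN1 at 0 min.

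**Figure D2:**
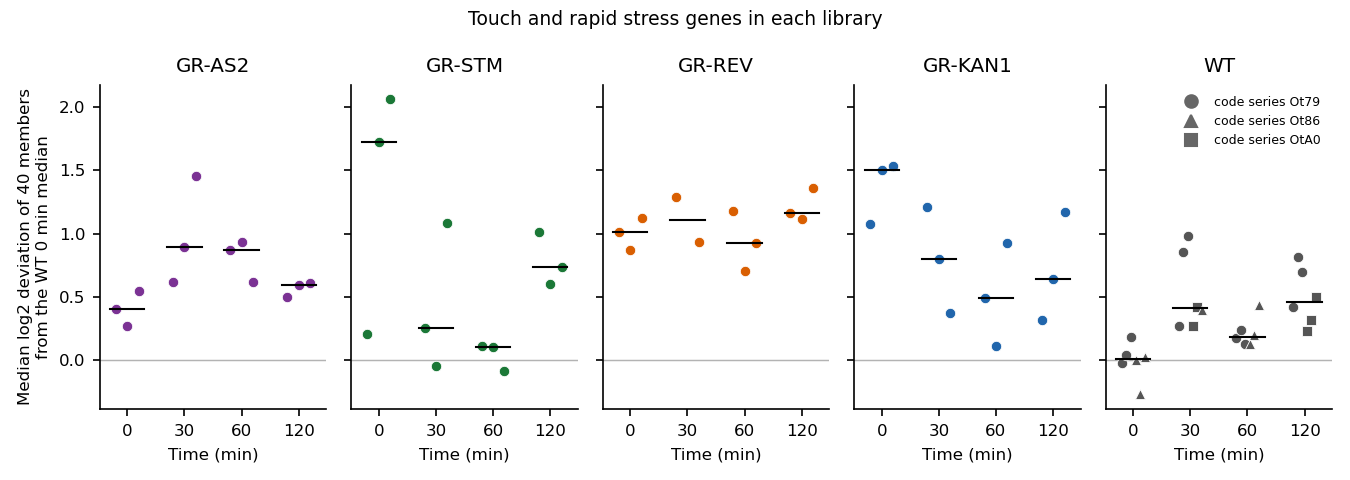
Each point is 1 library, with time in min on the horizontal axis and, on the vertical axis, the median over the 40 tested members of log2(FPKM + 0.5) minus the WT 0 min median. Bars are group medians, and marker shapes in WT show the library code series. GR-STM replicates 2 and 3 at 0 min are the highest points, at 1.72 and 2.06, and GR-REV stays between 0.71 and 1.36 at all times.

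The library codes place WT replicates 4 to 6 in later code series and every transgenic library in the first. Within the first series alone, with 3 WT libraries at 0 min, the model called 0 members in GR-AS2, 6 in GR-STM, 6 in GR-REV and 7 in GR-KAN1. The gene named in each fusion stood high in its own line at 0 min. Its log2 difference from WT was 6.51 for AS2 in GR-AS2, 5.61 for STM in GR-STM, 4.91 for REV in GR-REV and 5.76 for KAN1 in GR-KAN1. Reads of the native gene and of the fusion were not told apart. Summed levels of 7 root marker genes were 66.9 to 107 FPKM in GR-AS2, 68.2 to 103 in GR-STM, 53.2 to 66.2 in GR-REV, 52.9 to 81.2 in GR-KAN1 and 58.4 to 89.8 in WT, with no marker at 0 throughout a group. Sums of 5 green tissue genes were 15250 to 86370 FPKM in GR-AS2, 35230 to 110200 in GR-STM, 31040 to 89170 in GR-REV, 52400 to 134000 in GR-KAN1 and 29100 to 108600 in WT. Of these, RBCS1A, the small subunit of Rubisco, was listed at 0 in all libraries of GR-AS2, GR-STM and GR-KAN1 and in at least 1 of WT, which can be a failed estimate. Sums of 9 heat shock genes were 308 to 870 FPKM in GR-AS2, 276 to 445 in GR-STM, 165 to 258 in GR-REV, 130 to 149 in GR-KAN1 and 58.5 to 388 in WT, and their part in the result was not tested.

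Among the touch and calcium genes at 0 min, 4 of 6 were called higher in GR-KAN1, 3 in GR-STM, 2 in GR-REV and 1 in GR-AS2, with median log2 differences of 1.63, 1.22, 1.16 and 0.49. TCH4 (AT5G57560) encodes a xyloglucan endotransglucosylase, which cuts and rejoins wall polymers. TCH4 had 26.8, 30.5 and 32.0 FPKM in GR-KAN1 seedlings, against a lowest, median and highest value of 5.59, 8.06 and 12.1 FPKM in WT. All 3 GR-KAN1 libraries lay above every WT library, with a log2 difference of 1.85 (SE 0.34, adjusted p = 0.00125, limma), and the call held in all 9 fits that left out 1 library. TCH4 had 5.84, 36.4 and 39.4 FPKM in GR-STM seedlings, so that its first library lay among the WT values, and the log2 difference of 1.33 missed the threshold (adjusted p = 0.0647, limma).

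BAP1 (AT3G61190), a C2-domain protein that binds membranes and restrains cell death, was called in each line. BAP1 had 2.51, 3.65 and 6.18 FPKM in GR-AS2, 1.29, 13.6 and 17.2 in GR-STM, 4.40, 4.42 and 5.65 in GR-REV and 4.83, 6.398 and 6.19 in GR-KAN1, against 0.537, 1.42 and 1.74 FPKM in WT. Its log2 difference from WT was 1.18 (SE 0.40, adjusted p = 0.0487) in GR-AS2, 1.98 (SE 0.40, adjusted p = 0.00671) in GR-STM, 1.45 (SE 0.40, adjusted p = 0.015) in GR-REV and 1.70 (SE 0.40, adjusted p = 0.0223) in GR-KAN1, by limma. Apart from GR-STM replicate 1, all transgenic libraries lay above every WT library. The GR-AS2 call was kept in only 2 of 9 fits that left out 1 library, with log2 differences of 0.87 to 1.45.

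The other calmodulin-like sensors are CML38, CML37, TCH2 and TCH3, and differences between the lines were not tested. CML38 (AT1G76650) was called in GR-KAN1 (log2 difference 2.04, SE 0.43) and in GR-REV (1.45, SE 0.43), with 8.78, 15.95 and 16.5 FPKM in GR-KAN1 and 9.70, 8.87 and 7.39 FPKM in GR-REV, against 1.57, 2.42 and 3.57 FPKM in WT. Both lines lay above WT in every library, and its log2 difference in GR-STM was 1.097 (SE 0.43, adjusted p = 0.567, limma). CML37 was called in GR-STM (1.82, SE 0.44), a call kept in 3 of 9 fits that left out 1 library, beside 1.57 (SE 0.44, adjusted p = 0.0863, limma) in GR-KAN1, where all 3 libraries lay above WT. TCH2 was called in GR-STM (1.01, SE 0.24) and GR-KAN1 (1.00, SE 0.24), in each case in 4 of 9 such fits. TCH3 passed in no line and had 53.1 to 103 FPKM in GR-AS2, 55.1 to 140 in GR-STM, 121 to 238 in GR-REV, 99.0 to 122 in GR-KAN1 and 59.4 to 203 in WT, where the groups overlapped.

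The CBF factors, which switch on cold tolerance genes, and DREB2A, a factor of drought and heat, had no call at 0 min. CBF2 had 0.881, 1.26 and 2.09 FPKM in GR-KAN1 seedlings and 0.261, 1.51 and 2.41 FPKM in GR-STM seedlings, against 0.110, 0.377 and 0.656 FPKM in WT. All GR-KAN1 libraries lay above WT, while the log2 difference of 1.13 missed the threshold (adjusted p = 0.0572, limma). The median of CBF2 over all 71 libraries was 0.31 FPKM. It stayed under the 1 FPKM of the filter in WT at 0 min, so it was tested only because other groups were higher. Its values are therefore given as a description. DREB2A had 1.35 to 1.94 FPKM in GR-AS2, 1.26 to 4.33 in GR-STM, 0.413 to 1.90 in GR-REV and 1.06 to 2.61 in GR-KAN1, against 1.46 to 2.25 FPKM in WT, and its groups overlapped.

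The ERF genes held the largest share of calls in GR-STM at 0 min. Of 10, 7 were higher in GR-STM, 6 in GR-KAN1, 5 in GR-REV and 1 in GR-AS2, with median log2 differences of 1.78, 1.73, 0.95 and 0.70. Of all tested genes, 0.33%, 0.52%, 4.86% and 4.7% were called higher. The GR-STM count includes RRTF1, and the GR-KAN1 count includes RRTF1 and ERF13. Both genes passed the filter on low values only through groups where they were high, as described below. ERF105 and ERF104 are activators of the same ERF subgroup as ERF5 and ERF6. ERF105 (AT5G51190) had 4.51, 58.0 and 70.6 FPKM in GR-STM, against 1.31, 3.77 and 5.05 FPKM in WT. Its log2 difference of 2.74 (SE 0.48, adjusted p = 0.00132, limma) was the largest of the members in GR-STM, and 0.29 remained without replicates 2 and 3.

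ERF104 (AT5G61600) had 6.59, 47.8 and 51.2 FPKM in GR-STM against 4.61, 6.91 and 8.53 FPKM in WT, a log2 difference of 1.95 (SE 0.33, adjusted p = 0.000722, limma). ERF6 had 5.67, 30.99 and 40.7 FPKM in GR-STM and 13.8, 19.9 and 20.8 FPKM in GR-KAN1, against 1.78, 4.70 and 7.21 FPKM in WT. Its log2 difference was 2.28 (SE 0.41) in GR-STM and 2.16 (SE 0.41) in GR-KAN1, and all GR-KAN1 libraries lay above WT. ERF5 had 3.79, 23.2 and 23.1 FPKM in GR-STM against 1.64, 2.58 and 3.99 FPKM in WT, a log2 difference of 1.85 (SE 0.33, adjusted p = 0.00183, limma). In ERF104, ERF6 and ERF5 the first GR-STM library lay within the WT range, as in ERF105.

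ERF13 and RRTF1, a redox-responsive ERF, were near the floor in WT and had the smallest adjusted p of the members in GR-KAN1, while WRKY40 and ERF105 had larger log2 differences there. Both genes passed the filter on low values only through groups where they were high: RRTF1 reached a mean of 1 FPKM only in GR-KAN1 and GR-STM at 0 min, and ERF13 only in these and in GR-REV at 30 min. Their calls are therefore given as a description. ERF13 (AT2G44840) had 2.39, 2.18 and 3.41 FPKM in GR-KAN1, against 0.0773, 0.342 and 1.93 FPKM in WT, a log2 difference of 2.17 (SE 0.33, adjusted p = 9.71e-05, limma). RRTF1 (AT4G34410) had 1.49, 2.52 and 2.74 FPKM in GR-KAN1, against 0.0, 0.135 and 0.193 FPKM in WT, a log2 difference of 2.08 (SE 0.34, adjusted p = 0.000364, limma). In both, every GR-KAN1 library lay above every WT library. RRTF1 was listed at 0 in GR-STM replicate 1 and had 2.44 and 4.64 FPKM in the other two.

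In GR-REV the ERF calls were ERF11, ERF1A, ERF2, ERF6 and ERF4. ERF11 (AT1G28370), a repressor with the EAR motif, had 6.25, 4.57 and 7.18 FPKM in GR-REV, against 0.504, 1.62 and 1.69 FPKM in WT, a log2 difference of 1.84 (SE 0.40, adjusted p = 0.00125, limma). ERF1A (AT4G17500) had 82.3, 44.1 and 64.0 FPKM in GR-REV, against 10.2, 17.2 and 20.9 FPKM in WT, a log2 difference of 1.93 (SE 0.44, adjusted p = 0.00263, limma). ERF2 had 25.3, 22.3 and 19.2 FPKM in GR-REV, against 5.03, 7.16 and 12.9 FPKM in WT, a log2 difference of 1.58 (SE 0.38, adjusted p = 0.00474, limma). Each of these 3 activator or repressor genes had all GR-REV libraries above all WT libraries, and the 3 calls held in all 9 fits that left out 1 library. ERF1A also had the smallest adjusted p of the members in GR-AS2, at 28.7, 43.5 and 67.2 FPKM and a log2 difference of 1.45 (SE 0.44, adjusted p = 0.0291, limma), a call lost without GR-AS2 replicate 2, GR-AS2 replicate 3 or WT replicate 1, where the log2 difference was 1.14 or more.

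**Figure D3:**
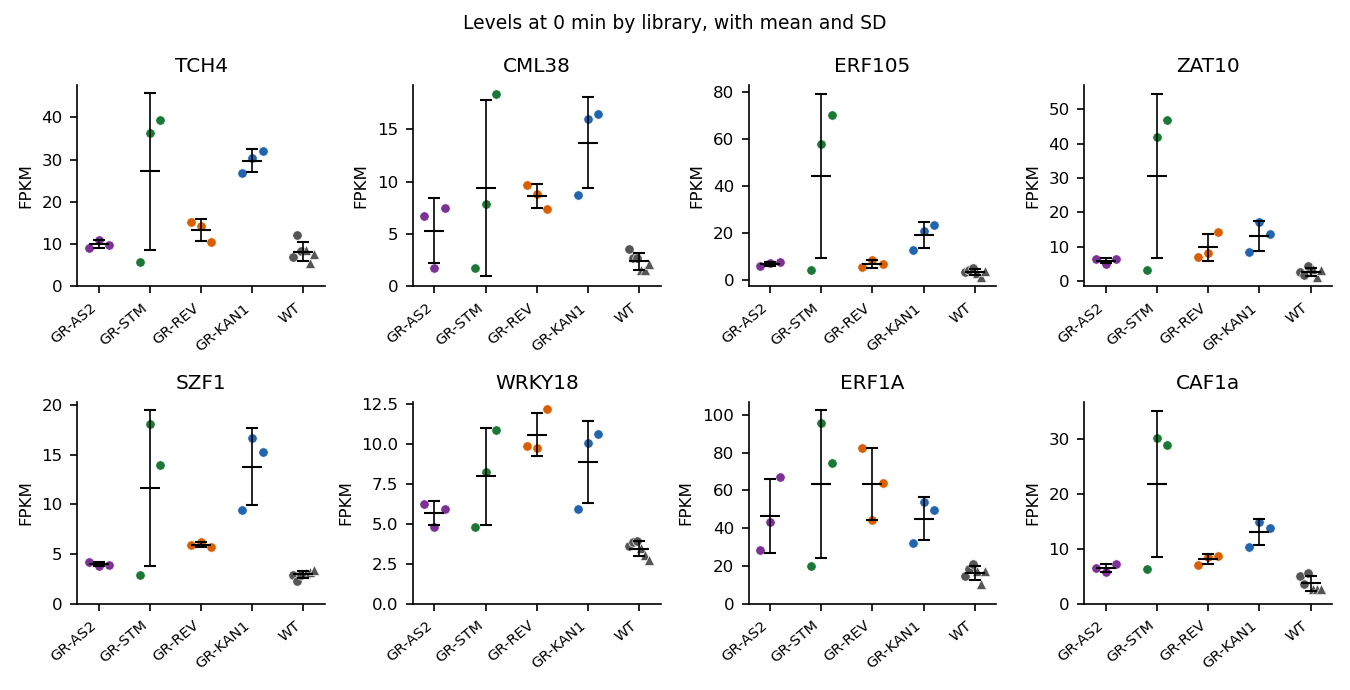
FPKM at 0 min of 8 members chosen to cover the role groups, 1 point per library, with mean and SD bars for the 4 transgenic lines (n = 3 each) and WT (n = 6). In ERF105, ZAT10 and CAF1a the GR-STM libraries split into 1 near WT and 2 far above it, while TCH4 and SZF1 are high in all 3 GR-KAN1 libraries and WRKY18 in all 3 GR-REV libraries.

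Of the 8 zinc finger genes, 4 were higher in GR-STM, 3 in GR-REV, 2 in GR-KAN1 and 0 in GR-AS2, with median log2 differences of 1.08, 0.88, 0.51 and 0.44. SZF1 and SZF2 are CCCH proteins of salt stress. SZF1 (AT3G55980) had 9.43, 16.7 and 15.3 FPKM in GR-KAN1, against 2.27, 3.02 and 3.37 FPKM in WT, a log2 difference of 1.98 (SE 0.33, adjusted p = 0.00041, limma). It had 2.90, 18.1 and 14.0 FPKM in GR-STM (log2 difference 1.45, SE 0.33), so only the first of these libraries lay inside the WT range. SZF2 was called in GR-STM (0.99, SE 0.22), GR-REV (0.69, SE 0.22) and GR-KAN1 (1.117, SE 0.22).

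AZF2 (AT3G19580), a C2H2 repressor of abscisic acid and salt responses, had the smallest adjusted p of the members in GR-REV. AZF2 had 6.89, 7.36 and 14.2 FPKM in GR-REV, against 1.61, 2.46 and 3.22 FPKM in WT, a log2 difference of 1.55 (SE 0.26, adjusted p = 2.04e-05, limma). The libraries did not overlap. ZAT10 (AT1G27730), a C2H2 repressor induced by cold, salt and light, had a log2 difference of 2.52 (SE 0.52) in GR-STM, with 3.17, 41.95 and 46.7 FPKM against 1.14, 2.88 and 4.47 FPKM in WT. In GR-KAN1 it had 8.49, 17.2 and 13.7 FPKM, all above WT, and a log2 difference of 1.95 that missed the threshold (adjusted p = 0.0558, limma). ZAT12 was called in GR-STM and ZAT6 in GR-REV, and ZAT11 and AZF1 passed in no line.

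Of the 6 WRKY genes and SIB1, a VQ protein that binds WRKY33, taken as 1 group of 7, 3 were higher in GR-REV, 3 in GR-KAN1, 0 in GR-STM and 0 in GR-AS2, with median log2 differences of 1.28, 1.18, 0.86 and 0.18. WRKY18 (AT4G31800), which acts with WRKY40 in basal defence, had 9.85, 9.76 and 12.2 FPKM in GR-REV, against 2.76, 3.53 and 3.95 FPKM in WT, a log2 difference of 1.31 (SE 0.25, adjusted p = 0.000259, limma). WRKY46 (AT2G46400) had 2.32, 2.45 and 3.22 FPKM in GR-REV and 2.48, 3.42 and 3.90 FPKM in GR-KAN1, against 0.335, 0.665 and 1.57 FPKM in WT. Its log2 difference was 1.28 (SE 0.29, adjusted p = 0.00215) in GR-REV and 1.52 (SE 0.29, adjusted p = 0.00177) in GR-KAN1, by limma. In both lines every library lay above every WT library. WRKY53 was called in GR-REV (0.98, SE 0.32), and WRKY40 (2.31, SE 0.59) and WRKY18 (1.03, SE 0.25) in GR-KAN1. Of 9 fits that left out 1 library, 3 kept the call of WRKY53, 2 that of WRKY40 and 4 that of WRKY18 in GR-KAN1.

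WRKY33, a factor of camalexin synthesis and resistance to necrotrophs, passed in no line. It had 13.6, 19.2 and 29.9 FPKM in GR-AS2, 11.7, 45.4 and 44.7 in GR-STM, 24.0, 18.6 and 29.3 in GR-REV and 23.5, 36.7 and 35.9 in GR-KAN1, against 8.05, 10.3 and 18.6 FPKM in WT. Its log2 difference of 1.71 in GR-KAN1 had an SE of 0.46 (adjusted p = 0.0574, limma).

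Of the 3 MYB genes, MYB77 (AT3G50060), a factor of auxin-responsive root growth, was higher in GR-STM (log2 difference 1.298, SE 0.25, adjusted p = 0.00602, limma). It had 7.62, 21.99 and 29.8 FPKM there, against 5.89, 6.55 and 7.52 FPKM in WT. In GR-KAN1 MYB77 had 13.2, 17.38 and 14.1 FPKM and MYB73 20.4, 28.8 and 32.5 FPKM, with log2 differences of 1.09 and 0.65, both called. In GR-REV MYB77 had 5.38, 5.67 and 7.54 FPKM, close to WT.

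CAF1a (AT3G44260), a deadenylase that shortens poly(A) tails, had the smallest adjusted p of the members in GR-STM. CAF1a had 6.35, 30.1 and 28.8 FPKM in GR-STM and 10.3, 14.8 and 13.8 FPKM in GR-KAN1, against 2.59, 3.16 and 5.61 FPKM in WT. All libraries of both lines lay above WT, the first GR-STM library only just so. The log2 difference was 1.86 (SE 0.30, adjusted p = 0.000411) in GR-STM and 1.40 (SE 0.30, adjusted p = 0.00838) in GR-KAN1, by limma. Its paralog CAF1b had log2 differences of 1.11 in GR-STM and 1.04 in GR-KAN1 that missed the threshold. The U-box ubiquitin ligases PUB22 and PUB23, which restrain elicitor responses, passed in no line.

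WT itself had no member called over time. At 30, 60 and 120 min against 0 min the counts were 0 higher and 0 lower each, where 0.0567%, 0.0258% and 0.067% of all tested genes were called by limma (0.0258%, 0.0258% and 0.0567% higher, and 0.0309%, 0.0% and 0.0103% lower). The log2 change from 0 min was positive for 40 of 40 members at 30 min, 32 at 60 min and 36 at 120 min. The medians were 0.58, 0.27 and 0.54. An unadjusted p under 0.05 was reached by 20, 5 and 16 of the 40 members, and by 1002, 792 and 1619 of 19406 genes. ZAT6 at 120 min had the smallest adjusted p, 0.178, with a log2 change of 1.16 (SE 0.31), and WRKY33 at 30 min had a log2 change of 1.41 (SE 0.38, adjusted p = 0.233, limma). By library, the median deviation was 0.27 to 0.98 at 30 min, 0.13 to 0.44 at 60 min and 0.23 to 0.82 at 120 min.

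At 30, 60 and 120 min few or no members of GR-STM and GR-KAN1 were called against WT of the same time. GR-STM had 0 members called at 30, 60 and 120 min, where 0.227%, 1.81% and 2.96% of all genes were (0.186%, 1.2% and 1.89% higher, and 0.0412%, 0.613% and 1.07% lower), with median log2 differences of -0.17, -0.23 and 0.09. An unadjusted p under 0.05 was reached by 7, 0 and 4 of its 40 members, and by 1378, 1887 and 1908 of 19406 genes. At 120 min the 2 shares were near each other. GR-KAN1 had 0 called at 30 min (0.474% of all genes, 0.186% higher and 0.289% lower). At 60 min it had 1 higher and 3 lower (4.58%, of which 1.5% higher and 3.08% lower). At 120 min it had 0 higher and 1 lower (5.27%, of which 2.35% higher and 2.92% lower), so that the share called lower was near that of all genes. Its median log2 differences were 0.07, 0.14 and 0.08. GR-AS2 had 1 higher at 30 min (4.05%, of which 2.15% higher and 1.9% lower), 0 called at 60 min (0.314%, of which 0.263% higher and 0.0515% lower) and 0 at 120 min (0.108%, of which 0.0361% higher and 0.0721% lower). Its median log2 differences were 0.31, 0.45 and -0.04, with 30, 34 and 17 of 40 members positive. All GR-AS2 libraries lay above all WT libraries for 3, 12 and 3 members (2.31%, 5.04% and 4.87% of all genes), and wholly below for 0. GR-REV had 2 higher and 0 lower at 30 min (2.32%, of which 2.13% higher and 0.191% lower). At 60 min it had 5 higher and 0 lower (11.1%, of which 6.66% higher and 4.43% lower). At 120 min it had 3 higher and 0 lower (6.57%, of which 3.88% higher and 2.69% lower). The share of members called in GR-REV was near that of all genes at 60 and 120 min. Its median log2 differences were 0.42, 0.51 and 0.47, with 33, 32 and 33 of 40 members positive. All GR-REV libraries lay above all WT libraries for 12, 8 and 16 members (6.11%, 8.63% and 7.63% of all genes). They lay wholly below WT for 2 members at each time (5.92%, 6.48% and 7.12%).

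**Figure D4:**
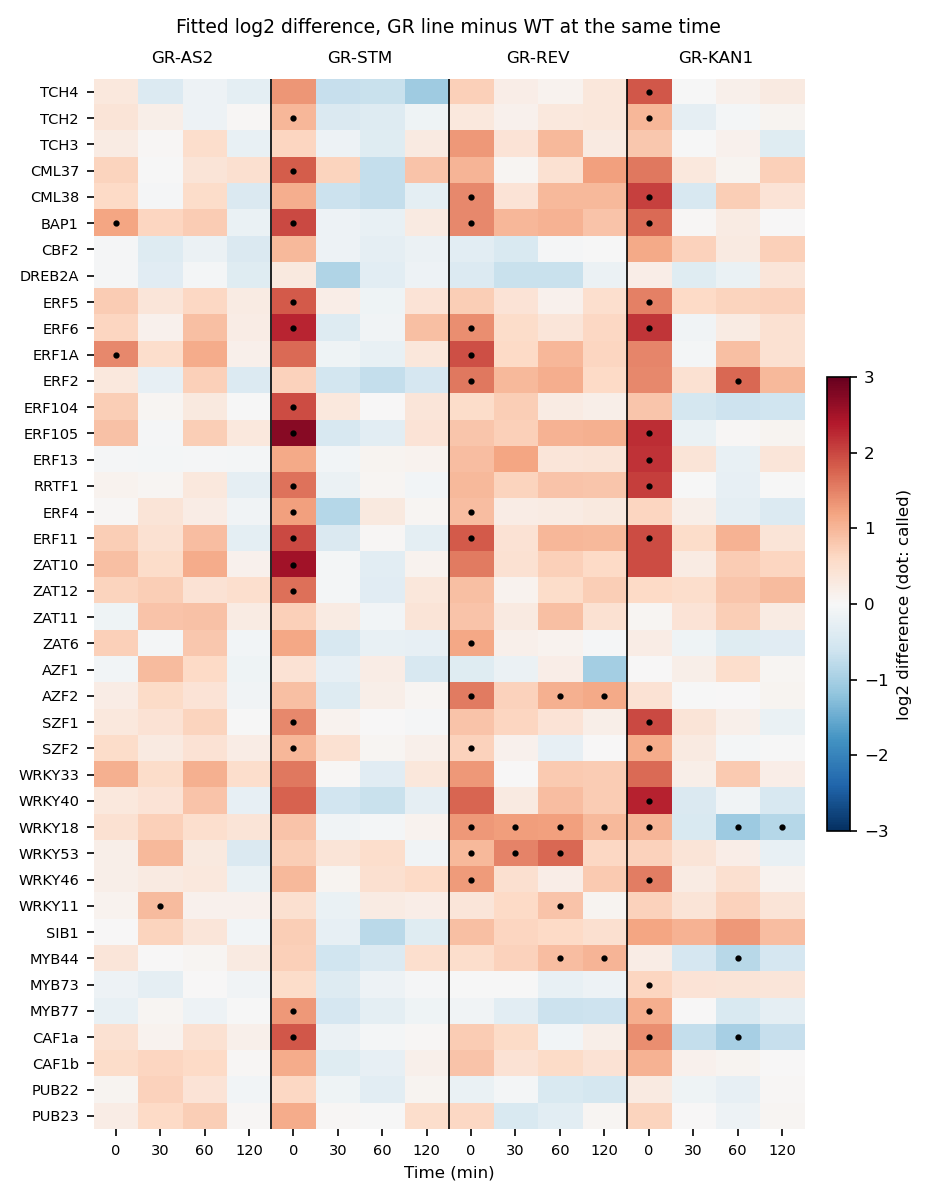
Fitted log2 differences of each line from WT at the same time (0, 30, 60 and 120 min, columns) for the 40 tested members (rows). A dot marks an adjusted p under 0.05. The 0 min columns of GR-STM and GR-KAN1 are red in most rows, with AZF1 and ZAT11 near 0 in GR-KAN1, and their later columns are pale or blue in most rows.

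In GR-REV, WRKY18 was higher at each time. WRKY18 had 19.2 and 13.4 FPKM at 30 min, 11.2, 16.6 and 10.3 at 60 min and 13.1, 11.8 and 9.89 at 120 min in GR-REV, against WT medians of 5.39, 4.22 and 4.46 FPKM. No GR-REV library overlapped WT at these times, and the log2 differences were 1.26 (SE 0.28), 1.22 (SE 0.25) and 0.97 (SE 0.26). The WRKY18 call held in every fit that left out 1 library at 60 min, but not at 120 min. Its 30 min value rests on 2 GR-REV libraries. WRKY53 (AT4G23810), a factor of leaf senescence, had 19.7 and 21.0 FPKM at 30 min and 29.3, 20.4 and 17.0 FPKM at 60 min in GR-REV, against 4.09 to 9.10 and 4.32 to 7.67 FPKM in WT. The log2 differences were 1.49 (SE 0.36, adjusted p = 0.00903) at 30 min and 1.73 (SE 0.32, adjusted p = 0.000103) at 60 min, by limma. The WRKY53 call at 60 min held in every fit that left out 1 library, while the 30 min value also rests on 2 GR-REV libraries.

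AZF2 had 7.93, 5.26 and 5.85 FPKM at 60 min and 7.90, 5.50 and 8.56 FPKM at 120 min in GR-REV, against 1.58 to 3.79 and 1.75 to 3.56 FPKM in WT. MYB44, a factor of stomatal closure, had 98.3, 53.8 and 86.4 FPKM at 60 min and 78.2, 49.1 and 102 FPKM at 120 min in GR-REV, against 34.4 to 70.3 and 30.1 to 49.7 FPKM in WT. The AZF2 libraries did not overlap those of WT, while 1 MYB44 library at each time lay within the WT range. The log2 differences were 1.08 and 1.14 for AZF2 and 0.92 and 1.01 for MYB44, all called, and the call of MYB44 was lost without replicate 1 at 60 min (log2 difference 0.74) and without replicate 3 at 120 min (log2 difference 0.77). The remaining call in GR-REV, WRKY11 at 60 min, had a log2 difference of 0.86 (SE 0.27).

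In GR-KAN1, WRKY18 was lower than WT at 60 and 120 min, the reverse of 0 min. It had 1.90, 2.32 and 2.08 FPKM at 60 min and 2.41, 2.53 and 3.90 FPKM at 120 min in GR-KAN1, against 3.00, 4.22 and 7.31 FPKM and 3.46, 4.46 and 6.68 FPKM in WT. At 60 min no library overlapped WT, and the log2 difference was -1.095 (SE 0.25, adjusted p = 0.00372, limma), while at 120 min it was -0.86 (SE 0.26, adjusted p = 0.034, limma). The 120 min call was lost without WT replicate 1 or 2 and without GR-KAN1 replicate 1 or 2 of that time. MYB44 at 60 min had 26.2, 18.0 and 24.9 FPKM in GR-KAN1, against 34.4, 49.6 and 70.3 FPKM in WT, a log2 difference of -0.82 (SE 0.21). CAF1a at 60 min had a log2 difference of -0.998 (SE 0.30, adjusted p = 0.0382, limma). ERF2 was the 1 member called higher than WT there, at 23.2, 18.9 and 30.9 FPKM in GR-KAN1 against 4.65, 7.81 and 16.6 FPKM in WT (log2 difference 1.72, SE 0.38, adjusted p = 0.0024, limma). At 60 min the calls of ERF2 and WRKY18 held in every fit that left out 1 library. Those of MYB44 and CAF1a did not.

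The GR-AS2 call, WRKY11 at 30 min, rested on 1 library. WRKY11 had 24.0, 23.1 and 137.3 FPKM in GR-AS2 at 30 min, against 19.6, 24.4 and 27.3 FPKM in WT. The log2 difference of 0.95 (SE 0.27, adjusted p = 0.032, limma) was 0.11 without GR-AS2 replicate 3, and the call was also lost without WT replicate 1 (0.90) or WT replicate 6 (0.91). Without GR-AS2 replicate 1 the model called 6 members at 30 min, and without GR-AS2 replicate 2 it called 3. Green tissue marker sums at 30 min were 22140 to 33300 FPKM in GR-AS2, against 28040 to 116500 FPKM in WT. Of the 5 markers LHCB2.1, a chlorophyll-binding protein, was called lower (-1.68, SE 0.47), the median log2 difference was -0.89, RBCS1A was listed at 0 in all 3 GR-AS2 libraries, and their part in the result was not tested. GR-AS2 replicate 3 at 30 min held the highest level over all 71 libraries of 7 members, ZAT11, AZF1, WRKY40, WRKY53, WRKY11, PUB22 and PUB23. Replicate 3 of GR-KAN1 at 120 min likewise held the highest level of ERF2, ZAT12, ZAT6 and SIB1.

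**Figure D5:**
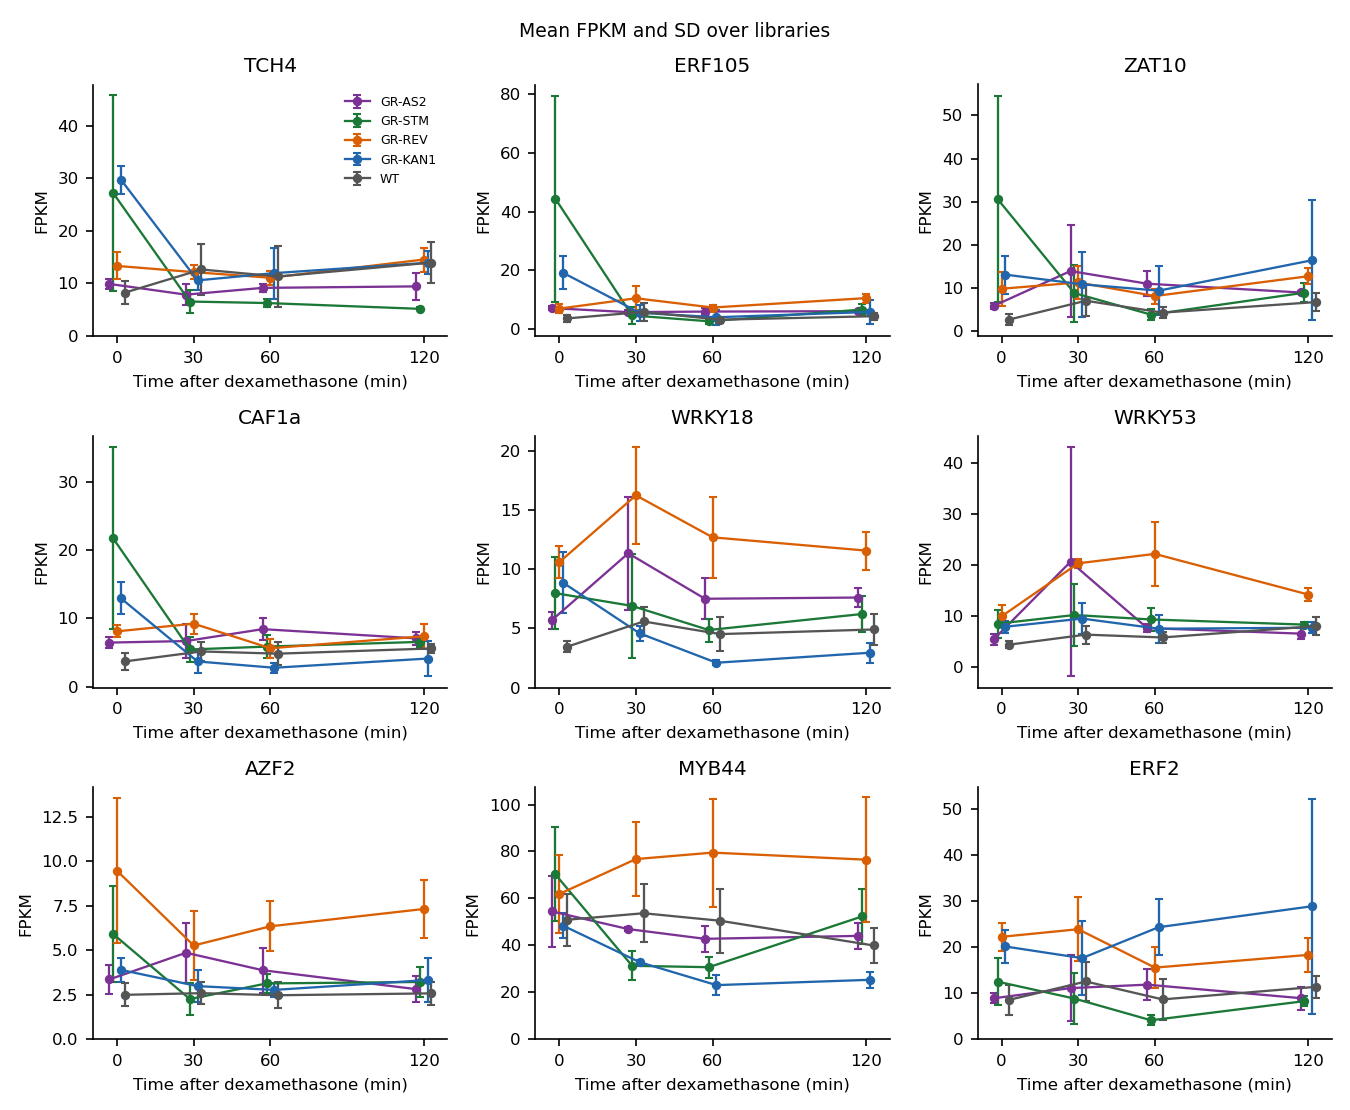
Mean FPKM with SD over libraries (n = 3 per point for the transgenic lines, 2 for GR-REV at 30 min, 6 for WT) at 0, 30, 60 and 120 min for 9 members. TCH4, ERF105, ZAT10 and CAF1a are high in GR-STM at 0 min with a wide SD and near WT at 60 min, while WRKY18, AZF2 and MYB44 stay above WT in GR-REV from 30 min on.

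The change from 0 min in each line was then set against that of WT, which tests whether a line moved differently over time. This contrast is the difference from WT at the later time minus that at 0 min. It uses the 0 min libraries again, so its calls are not independent of those at 0 min. GR-STM had 10, 13 and 4 members lower beyond WT at 30, 60 and 120 min and 0 higher at each, where 0.144%, 0.876% and 0.819% of all genes were called and 0.124%, 0.381% and 0.232% lower. GR-KAN1 had 1, 8 and 6 lower and 0 higher, where 0.067%, 1.05% and 0.83% were called and 0.0567%, 0.84% and 0.546% lower. The 8 and the 6 include ERF13 and RRTF1, which passed the filter on low values only through groups where they were high. GR-REV had 0 members called at each time (0.0412%, 1.18% and 0.799% of all genes), with medians of -0.43, -0.47 and -0.45. In GR-REV 5, 5 and 3 of 40 members had an unadjusted p under 0.05, beside 1102, 2140 and 1629 of 19406 genes. These shares were near each other at 60 and 120 min. GR-AS2 had 0 called (0.0%, 0.0103% and 0.0%), with 2, 0 and 2 of 40 members at an unadjusted p under 0.05. Of all 19406 genes, 2049, 1713 and 1308 reached it there. Whether GR-STM or GR-KAN1 differed in this from the other 2 lines was not tested.

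In GR-STM, TCH4 had 5.64, 4.99 and 9.07 FPKM at 30 min, 7.13, 5.73 and 6.00 at 60 min and 4.89, 5.16 and 5.49 at 120 min, against WT medians of 11.2, 9.91 and 13.7 FPKM. At 120 min all GR-STM libraries lay below the lowest WT library, 9.77 FPKM. In all, 2 of 40 members lay wholly below WT there, a share near the 6.02% of all genes that did. TCH4 was not called against WT at that time. Its change beyond WT was -2.02 (SE 0.46), -1.99 (SE 0.45) and -2.39 (SE 0.48), and the last call held in all 18 fits that left out 1 library, with values of -3.26 to -1.93. ERF105 had the largest change of the members called in GR-STM, -3.23 (SE 0.65) at 30 min and -3.06 (SE 0.63) at 60 min. With GR-STM 0 min replicate 2 or 3 left out, the model called 0 members at 30 min, 0 at 60 min and 1 at 120 min, and with replicate 1 left out it called 23, 26 and 19.

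In GR-KAN1, CAF1a changed by -2.12 (SE 0.41), -2.40 (SE 0.40) and -2.10 (SE 0.43) beyond WT at 30, 60 and 120 min. WRKY18 changed by -2.12 (SE 0.34, adjusted p = 8.7e-05) at 60 min and -1.89 (SE 0.36, adjusted p = 0.00171) at 120 min, by limma. ERF13 and RRTF1 changed by -2.40 (SE 0.44) and -2.31 (SE 0.46) at 60 min. Both passed the filter on low values only through groups where they were high, GR-KAN1 at 0 min among them. Their changes from that group are therefore given as a description. The calls of WRKY18, MYB77 and CAF1a at 60 min held in all 18 fits that left out 1 library, while that of TCH4 was kept in 6. Without GR-KAN1 0 min replicate 2 or 3, the counts were 0 at 30 min, 5 at 60 min and 3 at 120 min. For the member counts at 30 min, the 1 call, CAF1a, was also lost without GR-KAN1 30 min replicate 3.

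Genes of neighbouring pathways were followed in lists chosen with earlier results of these data known. At 0 min 4.7% of all genes were called higher in GR-AS2, 0.33% in GR-STM, 4.86% in GR-REV and 0.52% in GR-KAN1. Of 10 calcium, MAP kinase and CAMTA regulators at 0 min, 2 were higher in GR-AS2 (CAMTA3, log2 difference 0.53, and MPK6, 0.56), 2 in GR-REV (MKK9, 1.33, and MKK4, 0.64), and 0 in GR-STM and GR-KAN1. The median log2 difference of these regulators was 0.09 in GR-AS2 and 0.23 in GR-REV. Of the 17 other elicitor- and wound-induced genes, 16 were tested, and 1 was higher in GR-STM (ACS6, an ethylene synthesis enzyme, 1.80), 1 in GR-KAN1 (ACS6, 1.66), 1 in GR-REV (ATL2, 1.68) and 0 in GR-AS2. Of 8 CBF regulon genes, the targets of CBF factors in cold, 7 were tested and 0 were called in GR-AS2, GR-STM and GR-KAN1, with KIN1 higher in GR-REV (1.34). Median log2 differences of the CBF regulon were -0.02 in GR-AS2, -0.16 in GR-STM, 0.08 in GR-REV and 0.15 in GR-KAN1.

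Genes of jasmonate synthesis and signalling stood higher in GR-REV from 0 min on. All 14 jasmonate genes were higher in GR-REV at 0 min (median log2 difference 1.86), and 13 of 14 at each of 30, 60 and 120 min, while 3 were higher and 1 lower in GR-KAN1, 1 higher in GR-STM and 1 higher in GR-AS2 at 0 min. Of all genes, 4.86% were called higher in GR-REV at 0 min, and 2.13%, 6.66% and 3.88% at 30, 60 and 120 min. The change of the jasmonate genes from 0 min beyond WT had 0 called higher in GR-REV at 30, 60 and 120 min and 1 lower, at 60 min. Summed jasmonate gene levels were 666 to 963 FPKM in GR-REV at 0 min, against 171 to 281 FPKM in WT. MYC2, the main jasmonate transcription factor, was higher at 0 min by 0.63 in GR-AS2, 1.18 in GR-STM, 1.49 in GR-REV and 1.05 in GR-KAN1. LOX2, a lipoxygenase of jasmonate synthesis, had a log2 difference from WT at 0 min of 2.64 in GR-REV and -1.26 in GR-KAN1. Of the 3 camalexin synthesis genes, which WRKY33 is known to switch on, PAD3 (2.80, SE 0.65) and CYP71A13 (2.13, SE 0.42) were higher in GR-REV at 0 min, when 0 were called in the other lines, and again at 60 min (2.53 and 1.57). In GR-AS2 at 30 min CYP71A12 (3.34, SE 0.81) and CYP71A13 (1.37, SE 0.41) were higher, and CYP71A12 again at 60 min (3.39, SE 0.82). At 30 min GR-AS2 also had 4 of 16 elicitor- and wound-induced genes higher, FRK1 (1.81), NHL10 (1.83), WRKY6 (1.33) and WRKY25 (0.82). Of all genes, 2.15% were called higher in GR-AS2 at that time. The part of jasmonate genes in the members' levels in GR-REV was not tested.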

How the data were processed

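Gene expression was measured by RNA sequencing of poly(A)-primed cDNA in 71 libraries. Reads were aligned with TopHat2 2.0.10 and quantified with Cufflinks on TAIR10, per the submitters' processing notes, and the authors deposited FPKM values with geometric normalization. The sources used here give no read depth, use of strand or Cufflinks version, and the median FPKM of a library lay between 4.25 and 4.92. Of 22346 rows, 14 placeholder rows were left out, and 22041 of 22332 genes matched a TAIR10.1 locus tag.

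The deposited FPKM were transformed to log2(FPKM + 0.5). Genes with a highest group mean of at least 1 FPKM (19406) were fitted with limma 3.58.1 in R 4.3.3, with a mean per group, the library code series as a covariate, a trended prior and 49 residual degrees of freedom. P-values were adjusted by the Benjamini-Hochberg method within each of 31 comparisons and called under 0.05. The design text calls the replicates biological. The procedure was tested on simulated data.

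The members and gene lists were chosen with earlier results of these data known. All members could be named, values per library were given for the members with the smallest adjusted p, and other genes were named where called. Same-numbered replicates were checked for pairing: the median correlation of their deviations was 0.01 over 551 pairs (-0.52 to 0.50), and the numbers were not taken to pair samples. Alternatives were another pseudocount, no filter, no covariate, only the groups compared, WT replicates 4 to 6 left out, a replicate block, and each replicate left out. Leaving out GR-STM 0 min replicates 2 and 3 together, or the 5 libraries furthest out on the main residual axis, was chosen after seeing the data.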

Additional observations from a re-analysis of the deposited data

Results flagged for a closer look

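The change from 0 min in GR-STM differed from that in WT, by the limma interaction term at an adjusted p under 0.05, for the members named here. On the log2 scale the difference at 30 min was -2.02 for TCH4, -1.44 for TCH2, -2.68 for ERF6, -3.23 for ERF105, -2.08 for ERF4, -2.42 for ERF11, -1.30 for MYB44, -0.92 for MYB73, -1.80 for MYB77 and -2.03 for CAF1a. At 60 min it was -1.99 for TCH4, -1.39 for TCH2, -2.54 for CML37, -2.21 for BAP1, -1.97 for ERF5, -2.39 for ERF6, -1.94 for ERF104, -3.06 for ERF105, -2.82 for ZAT10, -1.97 for ZAT12, -1.12 for MYB44, -1.58 for MYB77 and -1.91 for CAF1a. At 120 min it was -2.39 for TCH4, -2.27 for ERF11, -1.43 for MYB77 and -1.82 for CAF1a. With GR-STM 0 min replicates 2 and 3 both left out, 0 of these calls were made at 30, 60 and 120 min.

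By the same test, the change from 0 min in GR-KAN1 differed from that in WT by -2.12 for CAF1a at 30 min. At 60 min the difference was -1.70 for TCH4, -2.40 for ERF13, -2.31 for RRTF1, -1.82 for SZF1, -1.18 for SZF2, -2.12 for WRKY18, -1.54 for MYB77 and -2.40 for CAF1a. At 120 min it was -1.80 for ERF13, -2.08 for RRTF1, -2.17 for SZF1, -1.89 for WRKY18, -1.35 for MYB77 and -2.10 for CAF1a. ERF13 and RRTF1 passed the filter on low values only through groups where they were high, GR-KAN1 at 0 min among them. Their values here are a description. Of 18 fits that left out 1 library, 6 kept the call of TCH4 at 60 min, and 1 kept MYB77 and 3 kept ERF13 at 120 min, while WRKY18 and CAF1a were called in all 18 at both times.

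Among the WT values, 15 of 160 sets of 6 libraries held a library far from the others by Dixon's test. For independent normal values chance gives about 1 in 20. The test used untransformed FPKM of members that share libraries, so the count cannot be set against that rate. At 0 min these were TCH2 at 77.7 FPKM in replicate 2, ERF13 at 1.93 FPKM in replicate 4 and ERF11, lowest, at 0.504 FPKM in replicate 5. At 30 min WT replicate 3 was highest for ERF1A (66.5 FPKM), ERF105 (11.6 FPKM), ZAT12 (19.9 FPKM), WRKY33 (74.5 FPKM) and SIB1 (5.58 FPKM), and replicate 2 for WRKY46 (1.63 FPKM). At 60 min replicate 6 was highest for TCH4 (22.2 FPKM) and WRKY40 (8.51 FPKM), replicate 1 for SZF1 (5.09 FPKM) and WRKY18 (7.31 FPKM), and replicate 2 for SIB1 (2.56 FPKM). At 120 min ERF105 was highest in replicate 2, at 6.47 FPKM.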

How the results depend on the processing

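Of 31 counts of members called, 17 moved with only the groups compared, 14 on leaving out WT replicates 4 to 6, 9 when the 5 libraries furthest out were dropped and 8 with no covariate; the first 3 use fewer libraries, and the cause was not tested further. With WT replicates 4 to 6 left out, the counts at 0 min were 0 in GR-AS2, 6 in GR-STM, 6 in GR-REV and 7 in GR-KAN1, those at later times 0 in GR-AS2 at 30 min, 1 in GR-REV at 30 min, 2 in GR-KAN1 at 60 min and 0 in GR-KAN1 at 120 min, and those beyond WT 0, 0 and 1 in GR-STM and 0, 4 and 3 in GR-KAN1 at 30, 60 and 120 min. With no covariate for code series they were 6 in GR-AS2 at 0 min, 1 in WT at 120 min, 6 in GR-AS2 at 30 min, 1 in GR-STM at 120 min, 8 and 6 in GR-REV at 60 and 120 min, and beyond WT at 30 min 6 in GR-STM and 3 in GR-KAN1. With only the groups compared they were 0 in GR-AS2, 0 in GR-STM and 10 in GR-KAN1 at 0 min, 3 in WT at 120 min, 0 and 3 in GR-AS2 at 30 and 60 min, 1 in GR-STM at 120 min, 0 and 10 in GR-REV at 30 and 120 min, 0 and 0 in GR-KAN1 at 60 and 120 min, and beyond WT 0, 0 and 0 in GR-STM, 1 in GR-REV at 60 min, and 2 and 10 in GR-KAN1 at 30 and 120 min. No filter gave 1 in GR-AS2 at 0 min, and a pseudocount of 0.1 gave 3 in GR-KAN1 beyond WT at 120 min. Without GR-STM 0 min replicates 2 and 3 the counts were 0 in GR-STM at 0 min and 0, 0 and 0 beyond WT, and the log2 differences at 0 min turned to -0.056 for TCH2, -0.12 for BAP1, -0.35 for RRTF1 and -0.062 for SZF1. Without the 5 libraries furthest out they were 0 in GR-STM, 6 in GR-REV and 6 in GR-KAN1 at 0 min, and beyond WT 1, 0 and 0 in GR-STM and 0, 5 and 3 in GR-KAN1. Leaving out 1 replicate each gave 0 to 2 in GR-AS2, 0 to 31 in GR-STM, 6 to 17 in GR-REV and 7 to 19 in GR-KAN1 at 0 min, 0 to 6 in GR-AS2 at 30 min, 0 to 2, 3 to 6 and 2 to 3 in GR-REV at 30, 60 and 120 min, 3 to 4 and 0 to 2 in GR-KAN1 at 60 and 120 min, and beyond WT 0 to 23, 0 to 26 and 1 to 19 in GR-STM and 0 to 3, 5 to 10 and 2 to 8 in GR-KAN1. The replicate block changed no call count by over 1.5 times, with 2 members in GR-AS2, 16 in GR-STM, 14 in GR-REV and 19 in GR-KAN1 at 0 min. Of all values of called members under the alternatives, 1514 kept their call, 613 lost it and 4 changed sign. FPKM carry no read depth, so counting error could not be given.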
